A study of Mus musculus with 48 samples.

Results

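A set of B cell markers, Cd79a, Cd79b, Ms4a1, Ighm, Igkc and Pax5, was followed in bulk RNA of mouse melanoma. These are 6 of the 55450 genes in the count table, and all 6 passed the filter on low counts in both experiments. They were chosen by their levels in untreated tumors of day 7, where the set was higher in knockout than in wild-type mice. Those untreated values are therefore given as a description with no test. Members were matched by symbol.

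Tumors were grown in C57BL/6J mice (WT) and in mice with a knockout of iNOS, the inducible nitric oxide synthase encoded by Nos2 (KO). All mice came from the Jackson Laboratory, were 4 weeks old on arrival and were housed for 2 weeks, and all carried subcutaneous flank tumors of the B16-D5 melanoma line for 8 days before therapy began. Mice received nothing (untreated), control antibody (IgG) or anti-PD-1, an antibody against an inhibitory receptor of T cells, with doses on days 0 and 3. The first experiment holds 30 WT tumors in 10 conditions, namely untreated at 0 hours and, at each of 6 hours, day 1 and day 3, tumors left untreated or given IgG or anti-PD-1. The second holds 18 tumors at day 7 in 6 conditions, namely WT or KO with no treatment, IgG or anti-PD-1. Each condition has 3 tumors. All tumors come from 1 injected cell line, which is not described as a knockout, so that KO refers to the host mouse. The allele is not named in the labels, which say of the replicates only that they are separate samples. The paper describes its sequenced replicates as tumors of individual mice, without stating this for every time point.

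B cells recognise antigen through the B cell receptor, a membrane immunoglobulin joined to a pair of signaling chains. Ighm encodes the constant part of the IgM heavy chain and Igkc that of the kappa light chain, while Cd79a and Cd79b encode the signaling chains. Ms4a1 encodes CD20, a surface protein of mature B cells, and Pax5 encodes the transcription factor that holds cells in the B lineage. In tumors, B cells are often found near T cells in lymphoid aggregates, and plasma cells that secrete antibody lose Ms4a1 and Pax5.

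The genotype could not be checked from the gene counts, and the genotype field of the labels reads WT for all 48 samples, including the 9 whose titles give KO. Nos2, the targeted gene, had 71, 103 and 186 counts in the untreated KO tumors, 84, 216 and 233 in the IgG KO tumors and 37, 50 and 207 in the anti-PD-1 KO tumors. The WT libraries had 53, 115 and 123 counts when untreated, 48, 76 and 104 with IgG and 60, 111 and 144 with anti-PD-1. On the CPM scale the KO mean was above the WT mean in untreated tumors (3.86 ± 1.32 against 2.74 ± 1.18) and in IgG tumors (4.74 ± 1.97 against 2.56 ± 1.01) and below it in anti-PD-1 tumors (2.62 ± 2.41 against 4.75 ± 2.28), with overlap in each pair. A knockout can leave transcript outside the deleted exons, and the table counts whole genes. WT and KO below therefore mean the libraries titled so.

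Libraries of the first experiment held between 25574203 and 47687872 counts. In the second experiment 15 libraries held between 27233047 and 40959309 counts. Another 3 held between 11625862 and 23267834 and stood apart: anti-PD-1 WT replicates 3 and 4 and untreated KO replicate 1. Counts on 1502 odorant, vomeronasal and taste receptor genes, which tumors have little reason to express, were used as a measure of counts that fall on any gene. This receptor rate was between 3.87 and 7.83 counts per kb of exon in the 3 libraries, between 0.0914 and 1.15 in the other 15 and between 0.0890 and 1.71 in the first experiment. If every gene carried counts at this rate, they would make up between 2.18% and 8.84% of the 3 libraries and at most 0.761% of any other library. What the counts come from was not tested. Levels below are in CPM, counts scaled to the library size with TMM factors, and 3 counts are between 0.0688 and 0.197 CPM in the libraries used.

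The name of the set was checked against 47 other genes in 5 lists, called B-lineage genes below. The list of ligands and attractants, with 7 genes such as Il4, holds genes that act on B cells and do not mark the lineage. They enter the list totals all the same. Of the 47, about as many were near 0 as were detected. Cr2, a complement receptor of mature B cells, Fcer2a, a receptor for IgE, and Blk, a kinase of B cell receptor signaling, had medians of 5, 1 and 0.5 counts over the 48 libraries. Pou2af1, a coactivator of immunoglobulin genes, had a median of 4 counts. Jchain, which joins secreted immunoglobulin, had no count in 29 libraries, and the lambda gene Iglc1 had none in 32. In all, 24 of the 47 genes had a median of at most 10 counts, and 24 had no count in at least 10 libraries.

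Other genes of the same lists were detected. Among them, Cd22 had a median of 44.5 counts, Spib 42, Ighd 25.5, Fcrla 25 and Tnfrsf13c 17.5, and Bank1, with a median of 61, had a count in every library. A median over 100 counts was found for 11 of the 47: Cd72, Cd180, Tnfrsf13b, Blnk, Btk, Bach2, Pou2f2, Ebf1, Bcl6, S1pr2 and Il4. Several of these, such as Btk and Cd180, are also expressed by macrophages, and Ebf1 is also expressed by stromal cells. Il4, a cytokine that T cells and other leukocytes make and that acts on B cells, had a median of 3491 counts. The highest count of 20 of the 47 genes lay in 1 of the 3 libraries with the high receptor rate. Since many of these markers are low, the 6 genes are named below as genes and not as a count of B cells. In bulk RNA, fewer cells of a type and less RNA per cell cannot be told apart.

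**Figure D1:**
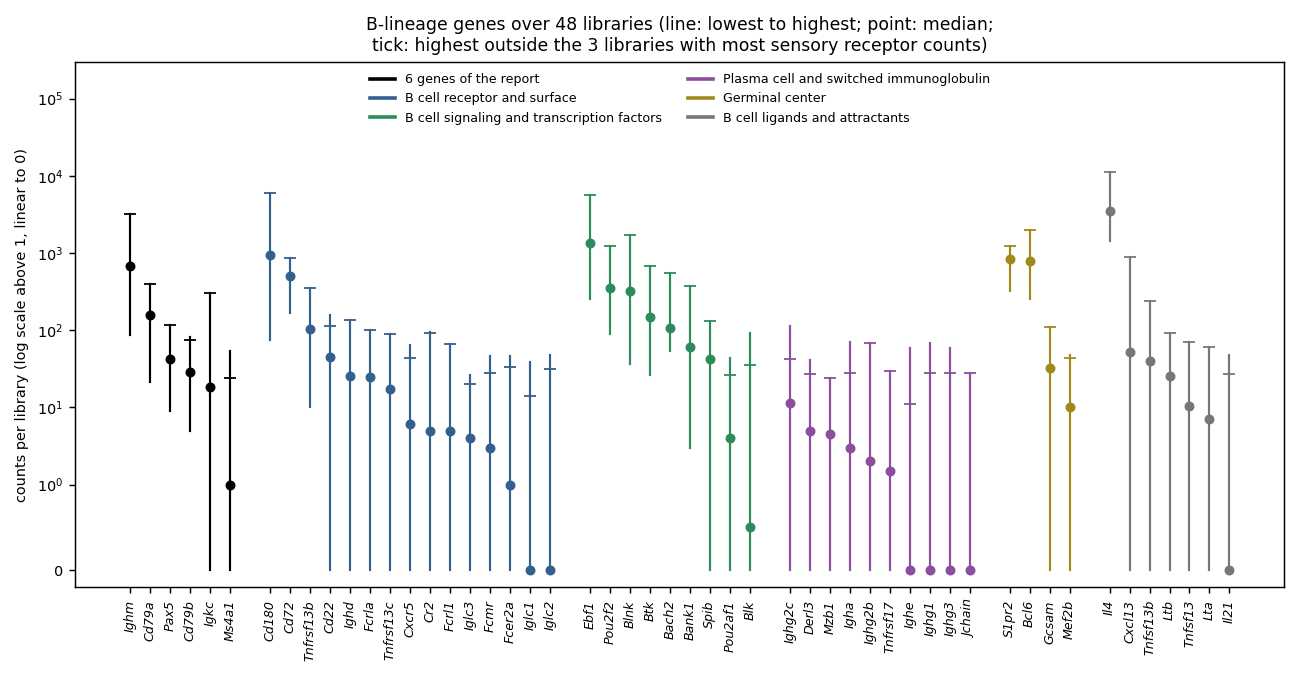
Counts per library of the 6 members and of 45 other B-lineage genes, grouped by list, on an axis that is logarithmic above 1 and linear below it. Lines run from the lowest to the highest of 48 libraries, points are medians, and ticks are the highest values outside the 3 libraries of high receptor rate; Ighm and Cd79a are never below 21 counts, whereas Blk, Fcer2a and Jchain lie at or near 0 in most libraries.

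Promoter sequence is shown for the pair of members for which RefSeq gave one, because Pax5 protein is known to act on the Cd79a promoter, so that both windows belong to 1 regulatory step of the B lineage. The 250 bases before the start that RefSeq gives for Cd79a are on chr7:24897247-24897496, plus strand, of GRCm38.p6, and those of Pax5 on chr4:44710695-44710944, minus strand. They are printed 5′ to 3′ with E-boxes (CANNTG, the site of E2A-type factors) in capitals.

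Cd79a: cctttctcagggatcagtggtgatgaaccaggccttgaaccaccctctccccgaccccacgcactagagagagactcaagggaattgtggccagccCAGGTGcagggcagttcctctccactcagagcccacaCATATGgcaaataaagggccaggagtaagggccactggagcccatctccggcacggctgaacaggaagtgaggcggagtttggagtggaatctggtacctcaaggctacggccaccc
Pax5: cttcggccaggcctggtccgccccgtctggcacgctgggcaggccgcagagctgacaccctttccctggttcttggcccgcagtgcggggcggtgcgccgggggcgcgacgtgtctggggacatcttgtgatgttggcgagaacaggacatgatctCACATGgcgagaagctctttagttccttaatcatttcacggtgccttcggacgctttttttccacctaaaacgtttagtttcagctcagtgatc

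The Cd79a window holds CAGGTG 154 bases and CATATG 117 bases before its RefSeq start, and the Pax5 window holds CACATG 94 bases before its own. The annotation used for counting gives other starts. There Cd79a begins at chr7:24897381, inside the window, and Pax5 at chr4:44710487, outside it. The distances hold for the RefSeq starts only. An E-box is common, being in 66.2% of 32851 RefSeq promoters of this length. The immunoglobulin octamer ATGCAAAT, found in 1.60% of promoters on either strand, is not in these windows. GC content is 58.8% in each window against a median of 52.4% over all promoters.

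In counts per length, the heavy chain gene stood far above the other members. On the CPM per kb scale, the median over the 30 libraries of the first experiment was 12 for Ighm, 2.7 for Cd79a, 0.817 for Igkc, 0.506 for Cd79b, 0.134 for Pax5 and 0.022 for Ms4a1. At day 7 the medians were 8.74, 4.69, 1.66, 0.709, 0.138 and 0 in the same order. Ighm and Igkc encode partner chains of 1 receptor, and Cd79a and Cd79b another such pair, yet within each pair 1 gene lay several-fold above the other. Levels at or below the receptor rate of the same library were found for Ms4a1 in 16 of 30 libraries of the first experiment and 15 of 18 at day 7. They were found for Igkc in 7 of 30 and 1 of 18, and for Cd79a, Cd79b, Ighm and Pax5 in none. Pax5 nevertheless came as near as 1.91 times the rate in the first experiment and 1.51 times at day 7. Counts at the rate would be 12.5% and 20.3% of all Pax5 counts of these experiments.

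**Figure D2:**
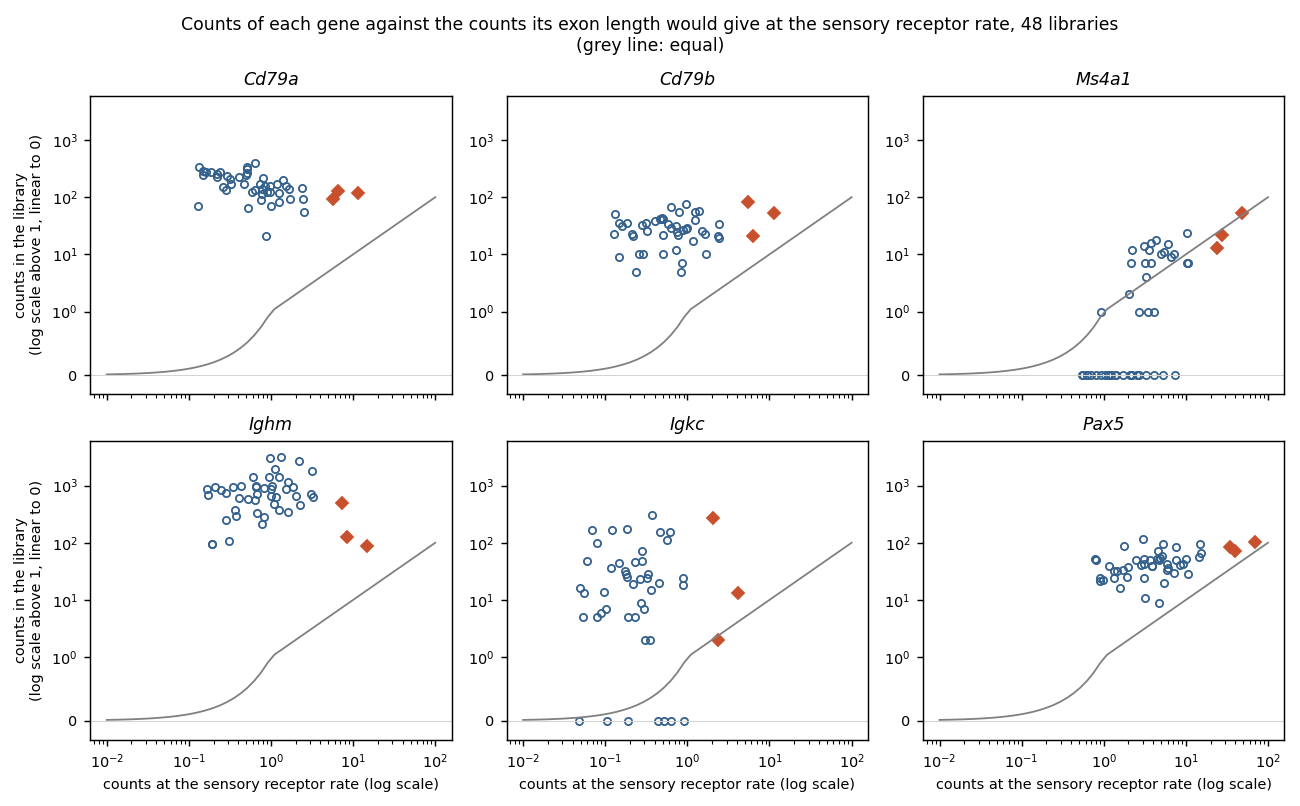
Counts of each member against the counts that its exon length would give at the receptor rate of the same library, 1 point per library, with orange diamonds for the 3 libraries of high rate and a grey line where both are equal. The x axis is logarithmic and the y axis logarithmic above 1; Ms4a1 lies on or below the line in 16 of 30 and 15 of 18 libraries, and Cd79a, Cd79b, Ighm and Pax5 lie above it in all.

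Cd79a lies on chr7:24897381-24902197 (plus strand, GRCm38) with 1.457 kb of exon, 715 bases from Arhgef1 on the same strand. Arhgef1 had between 913 and 4393 counts per library, and whether its transcripts add to Cd79a was not tested. Cd79a ranged from 21 to 332 counts in the first experiment and from 92 to 400 at day 7. It was the steadiest member at day 7 among treated tumors, with 271, 246 and 281 counts in anti-PD-1 KO tumors, 224, 335 and 223 in IgG KO tumors, 172, 117 and 127 in anti-PD-1 WT tumors, and 246, 157 and 141 in IgG WT tumors. All 6 conditions overlapped once scaled for depth. The means were 7.34 ± 0.295 CPM (SD, n = 3, as in all means here) in anti-PD-1 KO, 7.04 ± 1.31 in IgG KO, 6.85 ± 1.76 in untreated WT, 6.21 ± 3.90 in untreated KO, 6.21 ± 1.4 in anti-PD-1 WT and 5.94 ± 1.28 in IgG WT.

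In the first experiment mean Cd79a was highest in anti-PD-1 tumors at day 3 (5.64 ± 1.46 CPM) and lowest in IgG tumors at day 1 (3.19 ± 1.45 CPM). Between them lay IgG at day 3 (4.51 ± 1.19), untreated at 6 hours (4.51 ± 2.7), untreated at day 3 (3.99 ± 1.95), IgG at 6 hours (3.91 ± 0.877), anti-PD-1 at day 1 (3.91 ± 3.68), untreated at 0 hours (3.59 ± 2.71), untreated at day 1 (3.56 ± 1.58) and anti-PD-1 at 6 hours (3.54 ± 0.350). Single tumors of a condition differed more than conditions did. Untreated tumors at 0 hours had 253, 149 and 21 counts, and anti-PD-1 tumors at day 1 had 55, 332 and 71.

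Cd79b lies on chr11:106311341-106314762 (minus strand) with 1.431 kb of exon, 3830 bases from Scn4a. Its counts were low, from 5 to 75 in the first experiment and from 5 to 82 at day 7. In the first experiment its mean was 1.55 ± 0.716 CPM with IgG at day 3, then 0.889 ± 0.453 with IgG at day 1, 0.851 ± 0.748 with IgG at 6 hours, 0.823 ± 0.292 untreated at 6 hours, 0.793 ± 0.0696 with anti-PD-1 at 6 hours, 0.790 ± 0.287 with anti-PD-1 at day 1, 0.680 ± 0.472 with anti-PD-1 at day 3, 0.616 ± 0.384 untreated at day 3, 0.442 ± 0.260 untreated at day 1 and 0.336 ± 0.174 untreated at 0 hours. The 3 IgG conditions held the top of this order, and they overlapped their neighbours. At day 3 the IgG tumors had 29, 75 and 56 counts and the untreated tumors 10, 40 and 21.

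At day 7 mean Cd79b was 2.10 ± 1.13 CPM in untreated KO, 1.90 ± 1.42 in anti-PD-1 WT, 1 ± 0.205 in IgG WT, 0.980 ± 0.342 in IgG KO, 0.674 ± 0.347 in anti-PD-1 KO and 0.638 ± 0.463 in untreated WT. The top conditions are those that hold the 3 libraries of high receptor rate. Anti-PD-1 WT tumors had 41, 54 and 21 counts, and the receptor rate accounts for 11.2 and 6.37 counts of the latter pair. The other conditions had 41, 28 and 23 counts in IgG WT, 21, 51 and 38 in IgG KO, and 31, 9 and 36 in anti-PD-1 KO.

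Ighm lies on chr12:113418558-113422730 (minus strand) with 1.886 kb of exon and had the most counts of the 6, from 248 to 3163 in the first experiment and from 86 to 2734 at day 7. Its 2 highest means of the first experiment were at day 1. IgG tumors at day 1 had 1787, 944 and 3081 counts and anti-PD-1 tumors at day 1 had 621, 957 and 3163. The means were 49.3 ± 28.3 CPM with IgG at day 1, 41 ± 33.2 with anti-PD-1 at day 1, 32.2 ± 9.54 with IgG at day 3, 28.3 ± 22.7 untreated at 0 hours, 25.1 ± 11.4 untreated at day 1, 18.8 ± 11.3 untreated at day 3, 18 ± 8.9 untreated at 6 hours, 17.9 ± 7.69 with anti-PD-1 at 6 hours, 17.1 ± 7.37 with IgG at 6 hours and 17.1 ± 4.82 with anti-PD-1 at day 3. At day 3 the 3 anti-PD-1 tumors, with 979, 477 and 602 counts, lay below the 3 IgG tumors, with 925, 1420 and 978, on the CPM scale.

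At day 7 Ighm turned on single tumors. IgG WT tumors had 563, 368 and 2734 counts, anti-PD-1 WT tumors 1433, 86 and 124, and untreated WT tumors 106, 994 and 95. The KO tumors had 752, 672 and 592 counts with IgG, 927, 95 and 829 with anti-PD-1, and 505, 212 and 278 untreated. In each WT condition 1 tumor stood several-fold above the other two, and the IgG KO tumors were the closest to each other. The means were 43.4 ± 50.02 CPM in IgG WT, 18.4 ± 3.26 in IgG KO, 17.4 ± 20.2 in anti-PD-1 WT, 16.2 ± 11.6 in anti-PD-1 KO, 11.8 ± 7.69 in untreated KO and 11.3 ± 14.8 in untreated WT.

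Igkc lies on chr6:70726435-70726966 (plus strand), a single exon of 0.532 kb inside the noncoding gene Gm30211, with no shared exon. It was the most uneven member, with no count in 7 of 30 libraries of the first experiment and at most 300 counts. Anti-PD-1 tumors at day 1 had 0, 25 and 300 counts, anti-PD-1 tumors at day 3 had 173, 2 and 36, and untreated tumors at day 3 had 0, 152 and 24. The means were 2.71 ± 4.17 CPM with anti-PD-1 at day 1, 1.65 ± 2.06 with anti-PD-1 at day 3, 1.51 ± 2.07 untreated at day 3, 1.25 ± 1.66 untreated at day 1, 0.8 ± 0.586 with anti-PD-1 at 6 hours, 0.697 ± 1.09 untreated at 6 hours, 0.390 ± 0.264 untreated at 0 hours, 0.264 ± 0.168 with IgG at day 3, 0.231 ± 0.231 with IgG at day 1 and 0.204 ± 0.353 with IgG at 6 hours. In most of these conditions the SD was as large as the mean or larger. The 3 IgG conditions were the lowest of the order.

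At day 7 Igkc ranged from 2 to 276 counts. The means were 4.38 ± 5.97 CPM in untreated KO, 2.23 ± 3.09 in IgG WT, 1.89 ± 2.14 in anti-PD-1 KO, 1.78 ± 2.63 in untreated WT, 1.51 ± 1.3 in IgG KO and 0.619 ± 0.454 in anti-PD-1 WT. Tumors rich in Igkc were mostly rich in Ighm too, as in the IgG WT tumor with 156 Igkc and 2734 Ighm counts and the untreated WT tumor with 169 and 994. The anti-PD-1 WT tumor with 1433 Ighm counts had 32 Igkc counts.

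Ms4a1 lies on chr19:11249675-11266241 (minus strand) with 6.187 kb of exon, beneath the antisense gene 4930526L06Rik, with no shared exon. It was barely detected, with no count in 12 of 30 libraries of the first experiment and 11 of 18 at day 7. Its highest count in the first experiment was 24, in an IgG tumor at day 1 whose replicates had 15 and 7. The means ran from 0.387 ± 0.220 CPM there through 0.226 ± 0.225 with anti-PD-1 at day 1, 0.211 ± 0.193 untreated at day 1, 0.167 ± 0.290 with anti-PD-1 at 6 hours, 0.166 ± 0.168 with anti-PD-1 at day 3, 0.158 ± 0.143 untreated at day 3, 0.149 ± 0.172 untreated at 6 hours, 0.0961 ± 0.166 with IgG at 6 hours and 0.0623 ± 0.108 untreated at 0 hours to 0.0188 ± 0.0163 with IgG at day 3. Counts at the receptor rate would be 66.1% of all Ms4a1 counts of the first experiment and 126% of those of day 7.

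At day 7 anti-PD-1 WT tumors had 2, 53 and 22 Ms4a1 counts and untreated KO tumors had 13, 0 and 0. The receptor rate alone gives 48.5 and 27.5 counts in the latter pair of anti-PD-1 WT tumors and 23.9 in the untreated KO tumor with 13. IgG WT tumors had 0, 1 and 10 counts, IgG KO tumors 1, 0 and 0, and the untreated WT and anti-PD-1 KO tumors none. In the 3 libraries of high receptor rate, Ms4a1 was thus at the level of genes that tumors have little reason to express. The means were 1.53 ± 1.76 CPM in anti-PD-1 WT, 0.177 ± 0.307 in untreated KO, 0.134 ± 0.205 in IgG WT and 0.0098 ± 0.017 in IgG KO. The 3 libraries at 0 in each of the remaining conditions each allow up to 3 counts, a limit that covers counting error only.

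Pax5 lies on chr4:44524757-44710487 (minus strand) with 8.853 kb of exon, and shares exon bases with the antisense genes Gm12462 (125) and 5730488B01Rik (636), which had at most 36 and 52 counts. Pax5 had from 9 to 97 counts in the first experiment and from 21 to 115 at day 7. In the first experiment the means were 1.97 ± 0.348 CPM untreated at day 3, 1.76 ± 0.754 with IgG at day 1, 1.43 ± 0.619 with anti-PD-1 at day 1, 1.21 ± 0.242 with IgG at day 3, 1.2 ± 1.2 untreated at 0 hours, 1.13 ± 0.354 with IgG at 6 hours, 1.08 ± 0.520 with anti-PD-1 at day 3, 0.971 ± 0.598 untreated at day 1, 0.957 ± 0.399 with anti-PD-1 at 6 hours and 0.860 ± 0.727 untreated at 6 hours. At day 3 the untreated tumors, with 89, 83 and 57 counts, lay above the IgG tumors, with 39, 33 and 55, on the CPM scale.

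At day 7 mean Pax5 was 3.81 ± 2.88 CPM in anti-PD-1 WT, 2.28 ± 1.06 in IgG WT, 2.06 ± 1.26 in untreated KO, 1.19 ± 0.217 in IgG KO, 0.873 ± 0.196 in untreated WT and 0.746 ± 0.233 in anti-PD-1 KO. Anti-PD-1 WT tumors had 41, 105 and 71 counts and anti-PD-1 KO tumors 22, 21 and 39. The IgG tumors had 115, 43 and 53 counts in WT and 32, 50 and 50 in KO. For each of the 6 members, no pair of neighbours in the order of condition means was free of overlap, with 0 of 9 pairs in the first experiment and 0 of 5 at day 7.

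**Figure D3:**
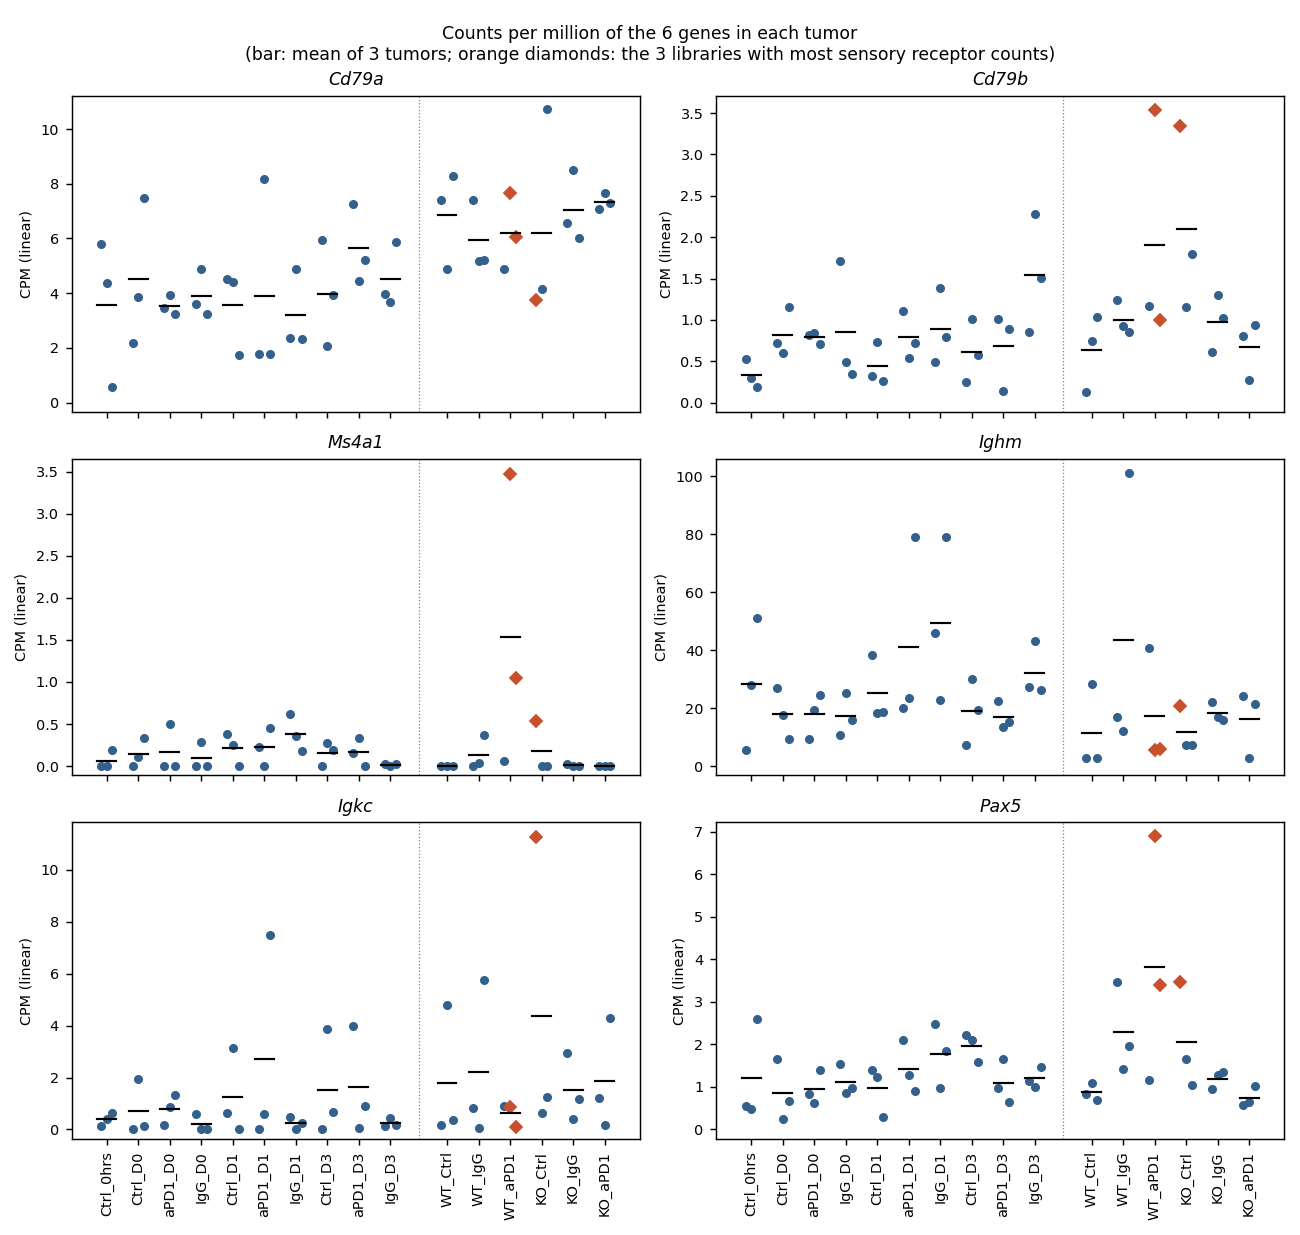
Level of each member in CPM on a linear axis in the 16 conditions, named as in the titles, with 1 point per tumor, a bar at the mean of 3 tumors and orange diamonds for the 3 libraries of high receptor rate. The experiments, left and right of the dotted line, were scaled separately; the 3 tumors of a condition often differ several-fold, as Igkc does with anti-PD-1 at day 1.

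The untreated day 7 tumors are those on which the 6 genes were picked. Cd79b had 82, 34 and 67 counts in the untreated KO tumors and 5, 26 and 36 in the untreated WT tumors, without overlap on the CPM scale, and its KO mean was 3.29-fold the WT mean. Igkc had 276, 19 and 46 counts against 6, 169 and 13, with a fold of 2.46, and Pax5 had 85, 49 and 39 against 32, 38 and 24, with a fold of 2.36. Ighm had a fold of 1.04, from 505, 212 and 278 counts against 106, 994 and 95. Cd79a had a fold of 0.907, from 92, 123 and 400 counts against 281, 171 and 286. Ms4a1 had 13, 0 and 0 counts against none, for which no fold is given.

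The direction was shared with most genes. A higher KO mean was found in 5 of 6 members, and in 67.1% of all genes tested. Among all genes, 9.73% had every KO tumor above every WT tumor and 8% the opposite. The first untreated KO tumor in each series above is a library of high receptor rate. Without it, 3 of 6 members had the higher KO mean, with folds of 2.31 for Cd79b, 1.55 for Pax5, 1.09 for Cd79a, 0.648 for Ighm and 0.526 for Igkc. With counts at the receptor rate subtracted instead, 4 of 6 were higher, with folds of 3.13 for Cd79b, 2.44 for Igkc and 1.81 for Pax5. The members did not move as a set, and T cell genes are given beside them. The summed level of 12 T cell markers was between 11.9 and 25.7 CPM in untreated KO tumors and between 4.03 and 9.23 CPM in untreated WT tumors. Their part in the values was not tested.

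Other comparisons did not enter the choice of genes and were tested with edgeR's quasi-likelihood test, with Benjamini-Hochberg adjustment over all 26848 genes of the first experiment or 30837 of the second. No member was under an adjusted p-value of 0.05 in any of the 12 comparisons with a direction or the 2 tests for any difference. Nor was any other gene, so the share of genes called was 0% in each. This depends on the settings, and DESeq2 or the removal of 1 library also gave calls, as described below. Fitted without the filter, edgeR called Ighm over the time course, as it did 2.85% of all genes. It also called Ighm at day 7 in anti-PD-1 against IgG tumors of WT mice (1.92% of all genes) and between the IgG groups (0.535%). In the test over the treated groups it called Ms4a1 and Ighm (11.3%). Ighm overlapped between the groups in both of these day 7 comparisons. With the filter its unadjusted edgeR p was 0.179 in the former and 0.197 in the latter. The IgG WT group, part of both, holds 1 tumor with 2734 Ighm counts beside tumors with 368 and 563. Without adjustment, the share of all genes with an edgeR p-value under 0.05 was 4.38% for anti-PD-1 against IgG at 6 hours, 3.64% at day 1 and 2.14% at day 3. It was 5.42%, 5.43% and 2.64% for IgG against untreated at these times and 6.89% for untreated tumors at day 3 against 0 hours. No member was under it in these 7 comparisons or in the test for any difference over the time course (5.70% of all genes).

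The log2 difference of Igkc between anti-PD-1 and IgG at day 1 was 3.54 ± 2.04 (SE; edgeR adjusted p = 1). That of Cd79b between IgG and untreated at day 3 was 1.32 ± 0.74 (edgeR adjusted p = 1). Ighm was the only member whose anti-PD-1 and IgG tumors did not overlap at day 3, with a log2 difference of −0.92 ± 0.63, and 4.83% of all genes were lower without overlap there. Pax5 did not overlap between IgG and untreated tumors at day 3, with −0.70 ± 0.69, and 4.67% of all genes were lower without overlap.

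At day 7 the largest differences lay between the anti-PD-1 groups. Pax5 was lower in KO than in WT by a log2 difference of −2.34 ± 0.66 (edgeR adjusted p = 0.123). Ms4a1 was at 0 in all 3 KO libraries and had 2, 53 and 22 counts in WT (edgeR adjusted p = 0.130). The latter pair of WT counts stands beside 48.5 and 27.5 expected at the receptor rate, so no fold is drawn from it. Cd79b differed by −1.48 ± 0.80 (adjusted p = 0.185), Cd79a by 0.24 ± 0.34 (adjusted p = 0.612), Ighm by −0.12 ± 0.92 (adjusted p = 0.934) and Igkc by 1.60 ± 1.42 (adjusted p = 0.413). The KO tumors lay below the WT tumors without overlap in Pax5 and Cd79b. They did so in Ms4a1 only by the values as counted, since the WT tumor with 2 counts is within the 3 counts that a library at 0 allows. DESeq2 gave an adjusted p of 0.00703 for Pax5, with 9.61% of all genes called. Without anti-PD-1 WT replicate 2, the one library of that group with a low receptor rate, edgeR gave 0.0243 for Pax5 and 0.0472 for Ms4a1, with 13% of all genes called. The difference of Ighm turned to 0.40 without anti-PD-1 KO replicate 2 and to 1.54 without anti-PD-1 WT replicate 2.

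These values stand beside a shift of the whole table. In the same comparison, 32.3% of all genes were under an unadjusted p of 0.05, against 2 of 6 members (33.3%), Pax5 and Ms4a1. Ms4a1 passed the filter only with the 3 libraries of high receptor rate present, so its place in this count carries no support. Of all genes, 17% were lower in KO without overlap. The median log2 difference was −0.91 over all genes and −0.80 over the members, the same with the Ms4a1 zeros set at 3 counts per library. The anti-PD-1 WT group holds 2 of the 3 libraries of high receptor rate, with rates from 0.324 to 7.83 against 0.102 to 0.129 counts per kb in anti-PD-1 KO. Without the 3 libraries, which leaves 1 anti-PD-1 WT tumor assumed to vary like the other groups, the log2 difference was −0.60 for Pax5 (edgeR adjusted p = 1), −0.74 for Cd79b, −1.29 for Ighm, 0.62 for Cd79a and 1.09 for Igkc, and the median over all genes was 0.00 to 2 decimals. Ms4a1 no longer passed the filter. With counts at the receptor rate subtracted, Pax5 differed by −1.41 (edgeR adjusted p = 0.235) and Cd79b by −1.44, and Ms4a1 again did not pass.

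Within WT, anti-PD-1 tumors differed from IgG tumors by a log2 difference of 3.48 ± 2.36 in Ms4a1 (from the same counts near the receptor rate), 0.73 ± 0.63 in Pax5, 0.91 ± 0.79 in Cd79b, −1.3 ± 0.93 in Ighm, −1.83 ± 1.43 in Igkc and 0.06 ± 0.34 in Cd79a. The lowest adjusted p of these edgeR tests was 0.399, and 16.3% of all genes were under an unadjusted p of 0.05 against 0 members. With counts at the receptor rate subtracted, the Pax5 difference was −0.11. Within KO the differences lay between −1.78 for Ms4a1 and 0.32 for Igkc, with 1.94% of all genes under an unadjusted p of 0.05 and no member. The Ms4a1 value rests on 1 count in the IgG KO tumors against 0 with anti-PD-1, so no fold is drawn from it. Between the IgG groups, Pax5 was lower in KO without overlap (−0.94 ± 0.63; 6.43% of all genes) and Ighm differed by −1.24 ± 0.93 (0.34 without IgG WT replicate 3), with 6.26% of all genes under an unadjusted p of 0.05 and no member. The anti-PD-1 and IgG groups are each used in several of these comparisons, which are thus not independent.

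Whether the anti-PD-1 difference depended on genotype was tested as an interaction. No member was under an unadjusted p of 0.05, against 7.42% of all genes, and the edgeR adjusted p was between 0.711 for Pax5 and 1 for Cd79a. The test for any difference among the 4 treated groups had Pax5 and Ms4a1 under an unadjusted p of 0.05 (edgeR adjusted p = 0.124 and 0.137), with 29.2% of all genes. Ms4a1 again entered the test only through the libraries of high receptor rate. DESeq2 called Pax5 in this test and 6.99% of all genes, and edgeR without anti-PD-1 WT replicate 2 called 2 members and 23.9% of all genes.

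**Figure D4:**
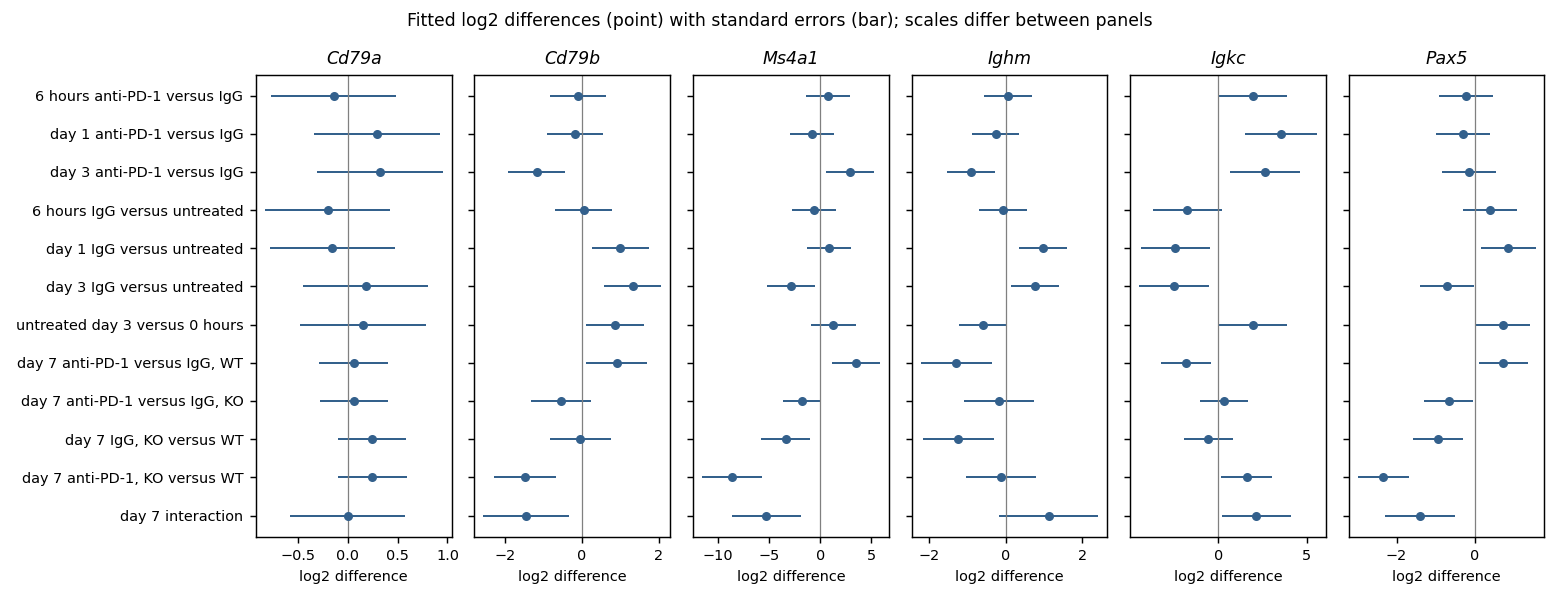
Fitted log2 difference (point) with its standard error (bar) of each member in the 12 tested comparisons, with a separate scale for each member. Pax5 and Ms4a1 between the anti-PD-1 groups of day 7, the former at −2.34 ± 0.66, lie farthest from 0 in units of their error; the fitted Ms4a1 value depends on the prior count because the KO libraries are at 0.

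The 47 other B-lineage genes gave no call either. Of them 45 were tested in the first experiment and 44 at day 7. In the comparison of the anti-PD-1 groups, 15 were lower and 1 higher in KO at an unadjusted edgeR p under 0.05, or 36.4% of those tested against 32.3% of all genes. Cd22, an inhibitory co-receptor with a median of 44.5 counts, differed by −3.15 ± 0.99 (edgeR adjusted p = 0.128), and Bach2, a repressor active in B and T cells, by −1.82 ± 0.45 (edgeR adjusted p = 0.123). The median over the 44 was −2.24, the same with 4 genes at their bound, against −0.91 over all genes. The anti-PD-1 WT group holds libraries of high receptor rate, with rates from 0.324 to 7.83 counts per kb. The highest count of 20 of the 47 genes lay in 1 of the 3 libraries of high rate. The list values, with those of Cd22 and Bach2, are as counted, without subtraction of the receptor rate or removal of the 3 libraries. How much of them comes from counts at this rate is not given here. Of 12 T cell markers, 8 were lower at the same unadjusted threshold, and their summed level was between 4.36 and 8.92 CPM in anti-PD-1 KO and between 22.96 and 49.3 CPM in anti-PD-1 WT.

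In the interaction at day 7, 5 were lower and none higher at this threshold (11.4% of those tested against 7.42% of all genes), and in the test over the treated groups 15 passed it (34.1% against 29.2%). Between untreated tumors at day 3 and 0 hours, 4 were higher and 4 lower, or 17.8% of those tested against 6.89% of all genes. Bcl6, a repressor of germinal center B cells that other cells also express, was the lowest of the 4 in p, with −1.06 ± 0.33 (edgeR adjusted p = 0.425). Fcmr (6.39 ± 2.24), Tnfrsf17 (5.09 ± 2.43) and Ighg2b (6.82 ± 2.44) were among the 4 that were higher. Bach2 (−1.25 ± 0.56), Pou2af1 (−6.45 ± 2.67) and Mzb1 (−6.23 ± 2.72) were the remaining ones that were lower. Counts per condition are not given for these genes, and fitted values as large as those other than Bach2 can depend on a few counts near 0. In the same comparison 7 of 7 keratinocyte genes were lower, with a summed level between 17.3 and 4158 CPM at 0 hours and between 1.88 and 2.93 CPM at day 3, and 2 of 6 muscle genes, with between 832 and 5982 CPM and between 5.23 and 646 CPM. In IgG tumors against untreated tumors, 3 were higher at day 1 (Cd180, Iglc2 and Bcl6; 6.67% of those tested against 5.43% of all genes) and 4 at day 3 (Fcrl1, Pou2f2, Mzb1 and Ighg1; 8.89% against 2.64%), and none was lower. The same limit holds for Iglc2 (5.94 ± 2.33), Fcrl1 (6.53 ± 2.23), Mzb1 (5.69 ± 2.65) and Ighg1 (6.57 ± 2.90). At day 1 the genes of other cell types that were higher at this threshold were 7 of 7 keratinocyte genes, 6 of 6 skeletal muscle genes and 3 of 8 macrophage genes. The summed keratinocyte level was between 0.606 and 688 CPM with IgG and between 1.47 and 3.72 CPM untreated, that of muscle between 2.69 and 7148 and between 3.88 and 26, and that of macrophages between 571 and 1180 and between 416 and 824. Their part in the values was not tested. In each of the 7 remaining comparisons with a direction at most 4 of the genes passed it, and in the test over the time course 6 did (13.3% against 5.70% of all genes).

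Variable gene segments of immunoglobulins, which a B cell transcribes after rearrangement, were summed after the member values had been seen. The 113 heavy chain V genes together had between 0 and 228 counts in 45 libraries, with a median of 36. In the 3 libraries of high receptor rate they had between 528 and 875 counts spread over 60 to 111 genes, where the receptor rate gives between 160 and 324. The 100 kappa V genes had between 0 and 175 counts in the 45 libraries, with a median of 41, and between 328 and 793 in the 3, where the receptor rate gives between 142 and 287. The V genes of T cell receptors were higher in the 3 as well, with between 200 and 454 counts over 108 alpha genes against 0 to 103. For these alpha genes the receptor rate gives between 162 and 328 counts in the 3. The 22 beta genes had between 70 and 189 counts in the 3, where the receptor rate gives between 33.4 and 67.6, against 0 to 69. Counts above the receptor rate in the 3 were thus found for V genes of T cell receptors too.

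Over the 30 tumors of the first experiment on the log2(CPM + 0.5) scale, none of the 15 pairs of members passed an adjusted permutation p of 0.05. The lowest was Cd79a with Ighm, at r = −0.515 and rho = −0.420 (permutation p = 0.00351 for r, adjusted 0.0526). At day 7, given as a description because the 3 libraries lie apart, Ms4a1 and Pax5 had r = 0.822, and each followed the receptor rate with r = 0.865 and r = 0.879 over the 18 tumors. Ighm and Igkc, the chains of 1 antibody, had r = 0.680.

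The 2 members with the most counts followed different parts of the tumor in the first experiment. Cd79a rose with the summed level of 8 melanoma genes, with r = 0.737 and rho = 0.688 (permutation p adjusted over 102 relations 0.000204 and 0.00051). Leaving out the 2 tumors farthest from the median of the melanoma sum gave r = 0.671, and the correlation within conditions was r = 0.815. Ighm rose with the sum of 8 macrophage genes, with r = 0.866 and rho = 0.843 (the same adjusted permutation p values), with r = 0.8 without the 2 farthest tumors and r = 0.833 within conditions. Ighm fell as the melanoma sum rose, with r = −0.752 and rho = −0.630 (adjusted permutation p 0.000204 and 0.00481).

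Ighm also followed the 9 genes of B cell signaling and transcription factors, with r = 0.906 and rho = 0.806, r = 0.863 without the 2 farthest tumors and r = 0.876 within conditions. Cd79a went the other way with this list, at r = −0.626 and rho = −0.516 (adjusted permutation p 0.00335 and 0.0374). The list includes Btk and Pou2f2, which macrophages express. Ms4a1 followed the receptor rate, with r = 0.545 and rho = 0.535 (adjusted permutation p 0.0187 and 0.0300), r = 0.5 without the 2 farthest tumors and r = 0.615 within conditions. These values share library and scaling, and a part of CPM that rises in a tumor lowers the rest. At day 7, as a description over 18 tumors, Ighm had r = 0.790 with the macrophage sum and Cd79a r = 0.227 with the melanoma sum.

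**Figure D5:**
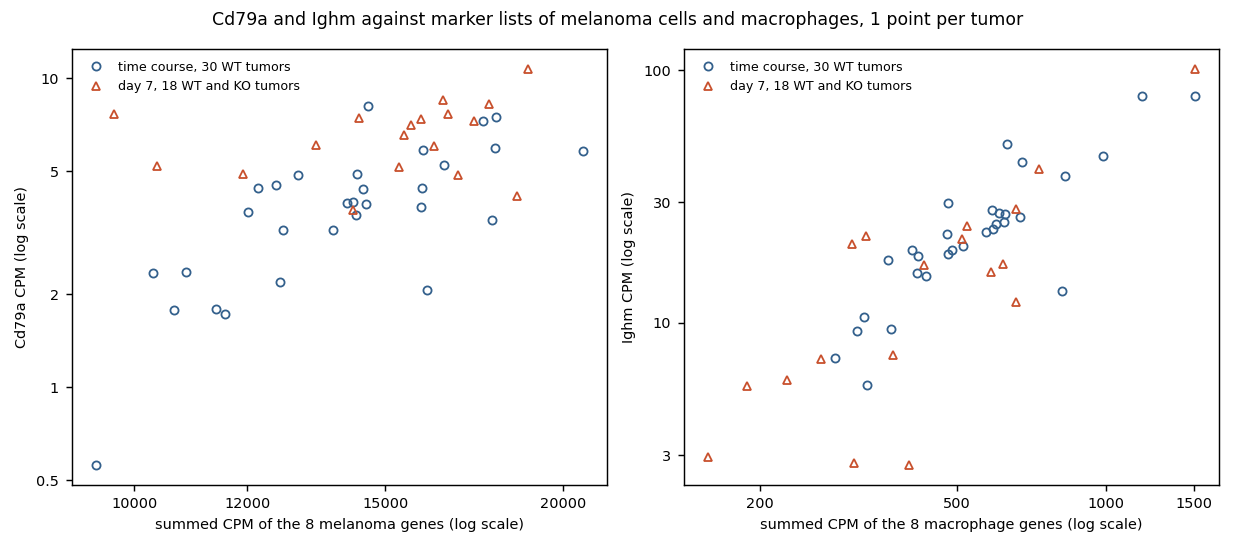
Cd79a in CPM against the summed CPM of 8 melanoma genes (left) and Ighm in CPM against that of 8 macrophage genes (right), all axes logarithmic, with 1 point per tumor, circles for the 30 tumors of the time course and triangles for the 18 of day 7. In the time course Pearson's r on the log2 scale was 0.737 on the left and 0.866 on the right.

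The genes most like the mean of the 6 members, by Spearman's rho over the 30 tumors of the first experiment and outside the lists, were B4galt1 (0.72), Apobec3 (0.71), Gimap1 (0.71), Rnf180 (0.68) and Scarf1 (0.67). Over the 18 tumors of day 7 they were Rnase6 (0.89), Fam213b (0.86), Ptn (0.84), Col6a6 (0.83) and B3gnt8 (0.83). No gene was in both sets of 5. The members' own rho with their mean was from 0.74 for Igkc to 0.005 for Cd79a in the first experiment, and from 0.80 for Igkc to −0.27 for Cd79a at day 7. The mean of the 6 was thus carried mainly by Igkc and Ighm, at 0.58 and 0.63 for the latter, and Cd79a did not follow it.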

How the data were processed

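The data are RNA counts of 48 mouse tumors in 16 conditions of 3 tumors. According to the authors' methods and the labels, stranded libraries were trimmed with cutadapt 1.8.1, aligned to mm10 with STAR 2.7.7a and quantified with RSEM 1.3.0 on GENCODE vM21. The deposited table holds counts per gene as whole numbers, not normalized by the authors. Its name points to another counting program, and the values do not show which was used. All 55450 gene identifiers matched vM21. Titles gave the condition of each sample, since genotype, treatment and time fields often disagree with the title. Title time D0 was read as 6 hours and the second experiment as day 7, both from the methods.

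Separate models were fitted to the experiments in edgeR 4.0.16 (R 4.3.3) by quasi-likelihood, with TMM scaling, filterByExpr at a minimum count of 10 and a coefficient for every condition. P-values were adjusted by Benjamini-Hochberg over all genes tested, with a threshold of 0.05, and the fit was tested on simulated data. DESeq2 1.42.0 was an alternative. Depth was 11625862 to 47687872 counts per library. Receptor rates used 1502 genes with 5506.059 kb of exon. Correlations used 100000 permutations in scipy 1.17.1. Replicate numbers were not taken as pairs.

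The members and lists were chosen with earlier results of these data known. Named genes were the 6 members, B-lineage genes set beside them, and the 5 genes with the highest Spearman correlation with the members' mean. Other named genes, the V genes and the removal of 3 libraries were chosen after values were seen. The untreated day 7 comparison chose the members and was not tested. A few genes of the B-lineage lists are counted in the list totals and are not reported here by name.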

Additional observations from a re-analysis of the deposited data

How the results depend on the processing

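The count of members called was 0 in the 14 tests. It stayed at 0 in each test with DESeq2 size factors, a replicate block, subtraction of the receptor rate, and a fit of the groups compared only. It did not in some tests with no filter, with DESeq2 or with 1 replicate left out. Of the counts of members, 205 values were unchanged within the limit used and 9 moved. With no filter, 1 member (Ighm) was called in the time course (adjusted p = 0.0114), in anti-PD-1 against IgG in WT (0.000113) and between the IgG groups (0.00246) by edgeR, and 2 in the test over the treated day 7 groups. Ighm nevertheless overlapped between anti-PD-1 and IgG tumors of WT mice and between the IgG groups. With DESeq2, 1 member (Pax5) was called between the anti-PD-1 groups (adjusted p = 0.00703) and 1 in the test over the treated groups (0.0216). Leaving out 1 replicate gave 0 to 2 members called in these 2 tests. The 2 were Ms4a1 (edgeR adjusted p = 0.0472) and Pax5 (0.0243), and anti-PD-1 WT replicate 2 was the library left out, which leaves only libraries of high receptor rate in that group. In untreated tumors, leaving out 1 replicate gave 3 to 6 members with the higher KO mean, with 3 without untreated KO replicate 1. Ighm changed direction between the anti-PD-1 groups, with log2 differences of 0.40 without anti-PD-1 KO replicate 2 and 1.54 without anti-PD-1 WT replicate 2, in a range of −0.60 to 1.54 with 1 replicate left out and from −1.29 over all alternatives. Between the IgG groups it ranged from −1.62 to 0.34 with 1 replicate left out, the latter without IgG WT replicate 3. The cause of these changes was not tested. Over all alternatives the edgeR or DESeq2 adjusted p between the anti-PD-1 groups ran from 0.00703 to 1 for Pax5 and from 0.0472 to 0.381 for Ms4a1.

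Over all genes edgeR called 0 in each test. Without the filter it called 206 for IgG against untreated at day 1, 397 for untreated day 3 against 0 hours, 1405 over the time course, 982 and 78 for anti-PD-1 against IgG in WT and KO, 274 between the IgG groups, 2829 between the anti-PD-1 groups, 270 for the interaction, 5812 over the treated groups and 0 in the other comparisons. Without anti-PD-1 WT replicate 2 it called 2271, 4959 and 9082 in the tests with that group other than the interaction, and other libraries left out moved the time course to at most 239 and the treated groups to at most 1091. DESeq2 called 1, 2 and 21 for anti-PD-1 against IgG at 6 hours, day 1 and day 3, 10, 25 and 13 for IgG against untreated at these times, 217 for untreated day 3 against 0 hours, and 440 over the time course. At day 7 it called 208 and 22 for anti-PD-1 against IgG in WT and KO, 37 between the IgG groups, 2962 between the anti-PD-1 groups (9.61%), 19 for the interaction and 2153 over the treated groups. Same-numbered replicates did not deviate together, with a median correlation of −0.01 over 65 pairs of the first experiment and 36 of the second. The replicate block left 0 members called in every test. Ms4a1 could not be fitted between the anti-PD-1 groups after subtraction, without the 3 libraries, or with only the groups compared, since it no longer passed the filter. Ms4a1 and Igkc counts near 0 limit what depth can show.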
